A study of Mus musculus with 16 samples.

Results

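The genes described here are Mpo, Elane, Prtn3 and Ctsg, which encode proteins of the azurophil (primary) granule of neutrophils. They were chosen by name, as genes made by immature neutrophils, and are 4 of the 33269 gene names measured on the arrays. Each was read by 1 probe: A_51_P317460 for Mpo, A_51_P144551 for Elane, A_51_P209818 for Prtn3 and A_51_P416546 for Ctsg. Elane, Prtn3 and Ctsg encode serine proteases, whereas Mpo encodes a heme peroxidase stored with them, so "granule genes" describes the 4 better than "proteases".

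The study used 16 Agilent 1-colour arrays of whole liver and of hepatic inflammatory cells from female C57Bl/6 mice with cirrhosis. Cirrhosis had been induced in every group, controls included, by 40 weeks on an atherogenic diet rich in fat. The ADSC groups had received stem cells grown from the inguinal fat of mice with a GFP transgene, 100000 cells in each of 2 injections under the spleen capsule with 2 weeks between them. Control groups are labelled as treated with PBS and samples were collected 2 weeks after injections ended. Liver and inflammatory cells, each with a PBS and an ADSC group, gave 4 groups of 4 arrays, numbered 11 to 14 for PBS and 7 to 10 for ADSC in both sample types. The extraction protocol in the labels speaks of a tumor infiltrate and of blood, so it leaves the isolation of the inflammatory cells unclear. Nothing in the labels ties an array to an animal of its own. The p-values therefore measure only the spread between these samples, which may be technical.

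Neutrophils fill their granules in a fixed order as they mature in the bone marrow. Azurophil granule genes are transcribed mainly in promyelocytes, specific and gelatinase granule genes later, and the azurophil transcripts are largely gone from mature neutrophils, which keep the proteins. Myeloperoxidase makes hypochlorous acid from hydrogen peroxide, while neutrophil elastase (Elane), proteinase 3 (Prtn3) and cathepsin G (Ctsg) digest microbial and matrix proteins and are activated by cathepsin C. Transcription of these genes in progenitors is known to depend on ETS (PU.1), C/EBP, RUNX and MYB factors.

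The sequences before the 4 start sites are shown because the genes moved together and because these factors are their known regulators. They are the 250 bases upstream of the start annotated by RefSeq on GRCm38.p6, written 5′ to 3′ in the direction of transcription, at chr11:87793534-87793783 (plus strand) for Mpo, chr10:79886062-79886311 (plus) for Elane, chr10:79879417-79879666 (plus) for Prtn3 and chr14:56102575-56102824 (minus) for Ctsg. Capitals mark GAGGAA, a core bound by PU.1 and other ETS factors.
Mpo: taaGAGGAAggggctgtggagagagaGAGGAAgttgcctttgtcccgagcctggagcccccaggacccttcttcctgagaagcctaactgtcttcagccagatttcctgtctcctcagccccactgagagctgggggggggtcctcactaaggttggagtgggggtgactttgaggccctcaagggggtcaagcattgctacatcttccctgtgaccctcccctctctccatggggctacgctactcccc
Elane: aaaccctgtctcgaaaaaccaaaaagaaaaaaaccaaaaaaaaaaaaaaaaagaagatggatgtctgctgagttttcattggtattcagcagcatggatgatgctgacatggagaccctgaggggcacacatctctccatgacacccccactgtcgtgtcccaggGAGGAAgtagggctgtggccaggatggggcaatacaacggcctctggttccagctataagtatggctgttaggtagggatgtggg
Prtn3: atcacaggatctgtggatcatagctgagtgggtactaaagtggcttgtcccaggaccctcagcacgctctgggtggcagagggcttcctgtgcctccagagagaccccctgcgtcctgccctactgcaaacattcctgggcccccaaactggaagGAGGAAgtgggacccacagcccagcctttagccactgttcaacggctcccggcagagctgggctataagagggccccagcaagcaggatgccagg
Ctsg: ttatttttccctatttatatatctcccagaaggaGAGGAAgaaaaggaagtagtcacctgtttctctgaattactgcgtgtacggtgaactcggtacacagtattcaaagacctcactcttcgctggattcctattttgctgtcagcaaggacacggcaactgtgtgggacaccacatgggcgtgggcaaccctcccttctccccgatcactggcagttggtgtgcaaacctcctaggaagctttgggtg
GAGGAA was found in 4 of 4 windows, with 2 matches in Mpo, and in 23.3% of 32851 mouse promoter windows of that length, with both strands searched. In all 4 genes the match lay on the transcribed direction. CNGTTA (MYB) was found in Mpo and Elane and in 19.8% of all windows, and TGTGGT (RUNX) in Ctsg and in 14% of all windows. TTNNGNAA (C/EBP) was in 0 of the 4 windows and in 36.8% of all. No matches overlapped among the members, and a match here is a run of letters, not a shown binding site. Prtn3 and Elane lie next to each other on chromosome 10, with Cfd after Elane. Mpo lies beside Lpo on chromosome 11, and Ctsg lies between Mcpt8 and Gzme on chromosome 14.

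**Figure D1:**
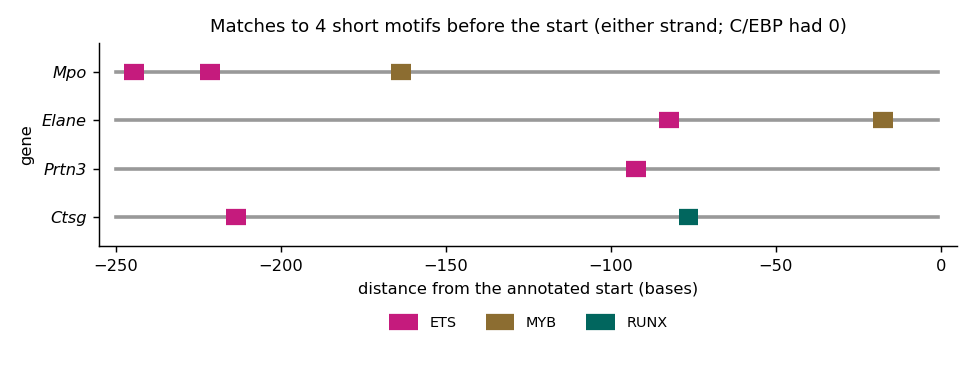
Position of the motif matches in the 250 bases before the annotated start of each gene, in bases from the start on the x axis, with 1 line per gene. GAGGAA (ETS) appears in all 4 genes, CNGTTA (MYB) in 2 and TGTGGT (RUNX) in 1.

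Levels below are log2 processed signal minus the array's own 75th percentile, so 0 is the 75th percentile of that array, and levels of different genes are not set against each other because they come from different probes. Between 51.6% and 66.3% of the spots of an array were well above background, 0 spots were saturated, and each array's 75th percentile was a processed signal of 124 to 552. It was lower in inflammatory cells ADSC (124 to 305) than in inflammatory cells PBS (229 to 510), with overlap. Arrays sat on 5 slides scanned on 3 days, liver always in slide positions 1 and 2 and inflammatory cells always in positions 3 and 4, so sample type and position cannot be told apart. Genes of the exocrine pancreas were very high on 3 arrays of inflammatory cells (PBS 11, PBS 13 and ADSC 10, mean level of 10 genes 6.18 to 8.38). Hepatocyte genes had a mean level of 5.58 to 6.58 on the liver arrays and 0.02 to 2.58 on those of inflammatory cells.

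All 4 genes were lower in inflammatory cells after stem cell treatment. Ctsg, Elane, Mpo and Prtn3 differed by -4.54, -4.70, -4.18 and -3.06 on the log2 scale, which is a fall of 23.3-fold for Ctsg, 18.2-fold for Mpo and 8.34-fold for Prtn3. No fold is given for Elane, because 1 of 4 treated arrays was well above background for it. Each passed limma's test. Of 20165 genes tested, 243 passed (1.21%), 216 of them lower (1.07%). On every array of treated mice each gene was below every array of PBS mice, a separation seen for 6.68% of the genes tested. In bulk RNA, fewer cells of a type and less RNA per cell cannot be told apart.

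Mpo, the peroxidase, had levels of 5.74, 6.97, 3.63 and 4.85 on inflammatory cell arrays PBS 11 to 14. On ADSC 7 to 10 it had levels of 1.18, 1.64, 1.24 and 0.38. PBS 12 was the highest and PBS 13 the lowest control, and the treated arrays lay within a narrower range without reaching the controls. The group means were 5.30 ± 1.41 (SD, n = 4) and 1.11 ± 0.53 (SD, n = 4), a difference of -4.18 ± 0.59 (SE; limma, adjusted p = 0.0102). All 8 arrays were well above background.

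Elane, neutrophil elastase, had levels of 1.38, 2.79, 0.03 and -0.03 on PBS 11 to 14. The levels on ADSC 7 to 10 were -3.33, -2.90, -3.54 and -4.84. PBS 12 was again the highest control and ADSC 10 the lowest treated array. The difference was -4.70 ± 0.61 (SE; limma, adjusted p = 0.00767) between means of 1.04 ± 1.33 and -3.66 ± 0.84 (SD, n = 4 each). Only ADSC 7 among the treated arrays was well above background, so the size of the fall rests on dim spots. With normexp background correction, which lifts dim signals, it was -2.45 (limma, adjusted p = 0.02).

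Prtn3, proteinase 3, had levels of 1.24, 2.85, 0.33 and 0.51 on PBS 11 to 14 and of -1.58, -1.38, -1.83 and -2.52 on ADSC 7 to 10. The spread again came mainly from PBS 12, and the groups did not overlap. The difference was -3.06 ± 0.50 (SE; limma, adjusted p = 0.0182) between means of 1.23 ± 1.15 and -1.83 ± 0.50 (SD, n = 4 each). It is the smallest fall of the 4 and no longer passed without ADSC 9 (-3.06, limma adjusted p = 0.0586) or without ADSC 10 (-2.83, limma adjusted p = 0.0563). With normexp background correction Prtn3 differed by -2.09 (limma, adjusted p = 0.0371), so the size of its fall also depends on the processing.

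Ctsg, cathepsin G, had levels of 4.47, 6.08, 4.71 and 3.72 on PBS 11 to 14. On ADSC 7 to 10 its levels were 0.39, 0.61, 0.21 and -0.40. The treated arrays were within about 1 unit of each other and more than 3 units below the lowest control. The difference was -4.54 ± 0.44 (SE; limma, adjusted p = 0.00247), between means of 4.75 ± 0.99 and 0.20 ± 0.43 (SD, n = 4 each), and had the 2nd smallest p among 20165 genes.

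**Figure D2:**
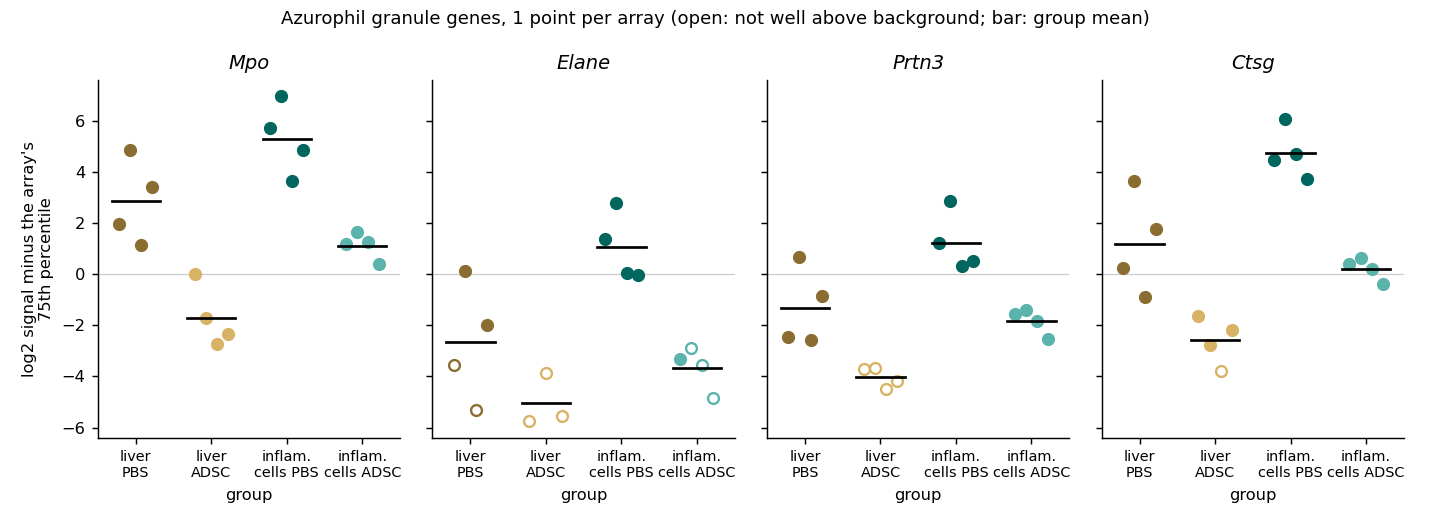
Level of each gene on each array (y axis, log2 processed signal minus the array's 75th percentile) in the 4 groups (x axis), with filled points for spots well above background, open points for those that were not, and a bar at the group mean. In inflammatory cells every ADSC array lies below every PBS array for all 4 genes, and in liver for Mpo, Prtn3 and Ctsg.

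The calls in inflammatory cells depended on how slide and array brightness were handled. With slide as a fixed block, which leaves 2 slides that hold both treatments, the differences were -4.94 (Mpo), -5.20 (Elane), -3.52 (Prtn3) and -4.78 (Ctsg), and none of the 4 genes nor any other gene passed (limma adjusted p = 0.0624, 0.0733, 0.0805 and 0.0624). With array brightness as a covariate only Ctsg of the 4 passed, among 64 genes called of 20165. On slide 2 (1 array against 1) the differences were -4.10, -4.29, -2.62 and -3.86 for Mpo, Elane, Prtn3 and Ctsg, and on slide 3 they were -5.79, -6.12, -4.43 and -5.70. Scan day 2 (2 against 2) held the same arrays as slides 2 and 3. Its differences, -4.94, -5.20, -3.52 and -4.78, repeat those of the slide block and are not a separate check. Within scan day 3 (1 against 2) the genes differed by -2.82, -4.23, -2.50 and -4.81. Without the 3 arrays rich in pancreas genes, Mpo, Prtn3 and Ctsg differed by -4.55, -3.28 and -4.50, with a limma adjusted p of 0.137 each over the 5 arrays left, and Elane had too few arrays above background to be tested.

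In liver Mpo, Prtn3 and Ctsg were lower on every ADSC array than on every PBS array, Elane overlapped, and no call was made. Prtn3 met the filter for testing only through its PBS arrays, so its separation is not independent of that filter. Mpo differed by -4.54 ± 0.87 (SE), the most negative difference among 17321 genes tested, with a limma adjusted p of 0.578 (unadjusted 0.000668). By limma 0 of the 17321 genes passed (0%), and 806 (4.65%) had an unadjusted p under 0.05. Separation of this kind, with every treated array below every control, was seen for 1.21% of the genes.

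Mpo had levels of 1.95, 4.87, 1.14 and 3.40 on liver PBS 11 to 14 and of 0.02, -1.73, -2.75 and -2.34 on liver ADSC 7 to 10. The controls spanned 3.73 log2 units, with PBS 12 highest and PBS 13 lowest, and ADSC 7 was the treated array nearest to them. The means were 2.84 ± 1.64 and -1.70 ± 1.22 (SD, n = 4 each).

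Prtn3 had levels of -2.48, 0.67, -2.59 and -0.84 on liver PBS 11 to 14 and of -3.71, -3.66, -4.48 and -4.19 on liver ADSC 7 to 10. None of the treated arrays was well above background for Prtn3. Set against the dimmest signal counted as above background, it was 4.75-fold lower, which is not a lower limit. With normexp background correction its log2 difference was -1.27 (limma, adjusted p = 0.864). In the main fit the limma adjusted p was 0.801 for a measured difference of -2.70 ± 0.68 (SE) between means of -1.31 and -4.01. Ctsg had levels of 0.24, 3.63, -0.89 and 1.77 on liver PBS 11 to 14 and of -1.63, -2.76, -3.77 and -2.19 on liver ADSC 7 to 10. PBS 12 was the highest control for Ctsg too, and its difference was -3.77 ± 0.92 (SE; limma, adjusted p = 0.801), with 3 of 4 treated arrays above background.

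Elane was not tested in liver, because only PBS 12 and PBS 14 were well above background. Its levels were -3.54, 0.13, -5.32 and -1.97 on liver PBS 11 to 14 and -5.76, -3.87 and -5.55 on liver ADSC 7 to 9, the spot of ADSC 10 having been marked as an outlier and left out. The groups overlapped. With no filter on dim probes the difference was -2.38 (limma, adjusted p = 0.57).

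The liver differences were smaller where both treatments shared a batch. On slide 2, PBS 13 against ADSC 7, Mpo, Prtn3 and Ctsg differed by -1.12, -1.12 and -0.74. Within scan day 2, PBS 13 against ADSC 7 and 9, they differed by -2.51, -1.50 and -1.81. PBS 13 was the lowest liver control for all 4 genes, and the other 3 liver PBS arrays were scanned on a day that held no liver ADSC array, so the treatments meet within a day only through PBS 13. With scan day as a fixed term 0 of 3 granule genes passed in liver.

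The order of the liver controls was PBS 12, PBS 14, PBS 11 and PBS 13 from high to low for each of the 4 genes. In inflammatory cells PBS 12 was the highest control and, among treated arrays, ADSC 8 the highest and ADSC 10 the lowest, for each gene. Over the 16 arrays the pairwise Pearson correlations of the 4 genes ran from 0.916 (Mpo and Elane, 15 arrays) to 0.981 (Prtn3 and Ctsg). After each group's mean was subtracted they ran from 0.778 (Mpo and Elane) to 0.928 (Elane and Prtn3), so the genes also varied together between arrays of 1 group. The arrays share slides, scan days and the scaling of each array, and these correlations are descriptions.

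The granule genes were higher in inflammatory cells than in liver. In PBS mice Mpo, Elane, Prtn3 and Ctsg were higher by 2.45 ± 0.80, 3.72 ± 0.95, 2.54 ± 0.64 and 3.56 ± 0.76 on the log2 scale (SE; limma, adjusted p = 0.0113, 0.00246, 0.00203 and 0.00053). Of 22139 genes, 44.9% were called higher in this comparison, and the median over all genes was 0.35, so 4 of 4 is to be read against that share. Only the Ctsg arrays did not overlap, as was the case for 40.3% of genes in this direction. In ADSC mice Mpo, Prtn3 and Ctsg were higher by 2.81, 2.18 and 2.79 (limma, adjusted p = 0.00456, 0.00564 and 0.0034), and Elane by 1.40 ± 1.03 did not pass (limma, adjusted p = 0.221). The background share of higher calls there was 45.4%, and 43.2% of genes had every inflammatory cell array above every liver array. Prtn3 was not well above background in liver ADSC. Set against the dimmest signal counted as above background, its difference was 3.31-fold, which is not a lower limit. With normexp and quantile normalization its log2 difference was 0.48 and did not pass (limma, adjusted p = 0.353).

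For each gene the groups fell in the order inflammatory cells PBS, liver PBS, inflammatory cells ADSC, liver ADSC. Liver PBS and inflammatory cells ADSC overlapped for all 4 genes, and the difference between these neighbours in the order was not tested. Inflammatory cells PBS and liver PBS overlapped for Mpo, Elane and Prtn3. Inflammatory cells ADSC and liver ADSC were apart for Mpo, Prtn3 and Ctsg and overlapped for Elane.

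The falls in the 2 sample types were not shown to differ. The effect in inflammatory cells minus that in liver was 0.36 (95% confidence interval -2.05 to 2.76) for Mpo, -2.31 (-5.30 to 0.68) for Elane, -0.36 (-2.29 to 1.57) for Prtn3 and -0.77 (-3.06 to 1.52) for Ctsg. The limma adjusted p was 0.935, 0.595, 0.917 and 0.832, and 7 of 22139 genes passed (0.0316%). These intervals are several log2 units wide, so they do not show that the effects were equal. The Elane and Prtn3 values rest on dim spots. Both genes were well above background on 0 liver ADSC arrays. Elane was so on only 2 liver PBS arrays and 1 inflammatory cell ADSC array, and its liver difference was not tested by itself. The sign changed for Mpo with the background correction, for Prtn3 with a term for slide or brightness, and for both with single arrays left out.

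**Figure D3:**
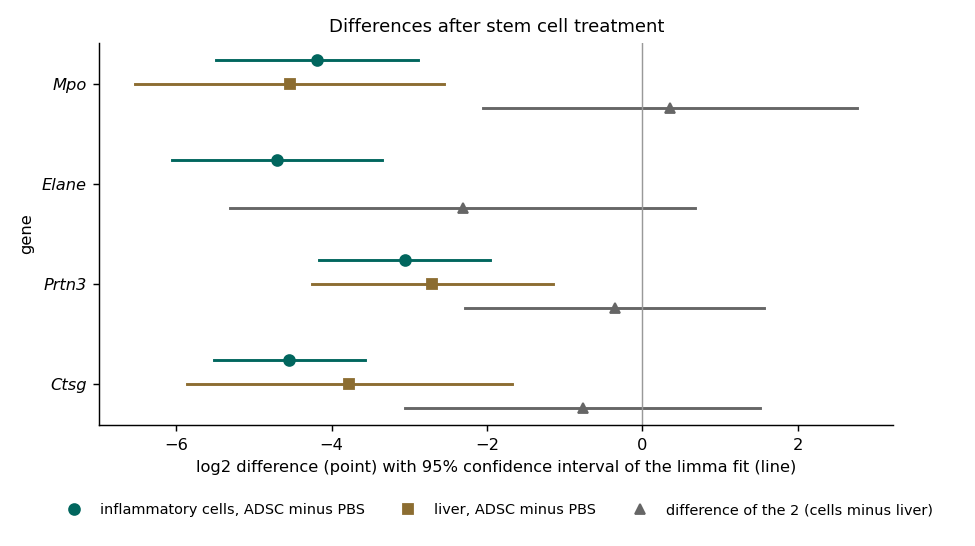
Log2 difference with its 95% confidence interval from the limma fit (x axis) for each gene (y axis): ADSC minus PBS in inflammatory cells, the same in liver, and the difference between the 2 effects. All tested treatment differences lie below 0, from -2.70 to -4.70, and all 4 intervals of the difference between effects include 0. Elane has no liver value because it was not tested there, and its difference between the effects rests on dim liver spots.

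Of 9 other genes of the azurophil granule and of granule maturation tested in inflammatory cells, 1 passed, and the list's median was -0.79 against 0.03 over all genes. That gene was Prss57, a serine protease of the same granule (measured difference -3.37 ± 0.51, SE; limma, adjusted p = 0.0125). It passed the filter only through its PBS arrays and was not well above background on any treated array. Set against the dimmest signal counted as above background, it was 4.85-fold lower. Ctsc, the cathepsin C that activates the 3 proteases, had a difference of -1.23 ± 0.27 (SE; limma, adjusted p = 0.0606), with every treated array below every control. The remaining 7, among them the lysozyme gene Lyz2 and Cd63, lay between -1.05 and -0.06.

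Genes of the later granules fell with the 4. In the specific and gelatinase granule list, 8 of 10 were called lower in inflammatory cells, with a median of -3.93. They included Chil3 (-3.45), the collagenase Mmp8 (-3.77), the cathelicidin Camp (-4.34) and Itgb2l (-4.09), with limma adjusted p-values from 0.00247 to 0.00268. In the mature neutrophil list 6 of 9 passed as lower and 9 of 9 had a negative difference, with a median of -2.13. Those that passed included S100a8 (-2.81), Retnlg (-3.47) and the formyl peptide receptors Fpr1 (-2.28) and Fpr2 (-2.51). In liver 0 of the genes tested in these lists passed in limma. Of them 7 of 7 and 4 of 9 were below the controls on every treated array, against 1.21% of all genes tested in liver. Mmp8 and Mmp9 of the granule list were each well above background on 4 PBS and 1 ADSC liver arrays. They met the filter through the PBS arrays alone, so their separation is not independent of it.

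Of 11 granulocyte progenitor genes tested, 1 passed, and their median was -0.15. That was Ms4a3, which marks granulocyte and monocyte progenitors, at -3.18 ± 0.47 (SE; limma, adjusted p = 0.0111). The transcription factor gene Gfi1 had a difference of 0.14 ± 0.34 (SE; limma, adjusted p = 0.866), Cebpa -0.57 and Myb 0.00. Cebpa and Cd34 of this list were higher in liver PBS (means 2.70 and 3.44) than in inflammatory cells PBS (0.81 and 1.63). In that comparison 6 of 11 list genes were called higher in inflammatory cells and 2 lower. Whether the list's median follows the number of progenitors was not tested. Cebpe was not matched to a probe and was not analysed here.

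No protease inhibitor passed in inflammatory cells (0 of 6, median -0.36). Serpinb1a, which inhibits elastase, proteinase 3 and cathepsin G, differed by -1.55 ± 0.44 (SE; limma, adjusted p = 0.131), and the elastase inhibitor gene Slpi by -1.32 (limma, adjusted p = 0.0798) and Serpinb6a by -0.88 (limma, adjusted p = 0.0947).

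Of 8 neighbouring and related genes tested, 1 passed, and the median was -0.35. Mcpt8, a basophil protease next to Ctsg, fell by 2.39 on the log2 scale (limma, adjusted p = 0.0194). Epx, the eosinophil peroxidase on the Mpo side of chromosome 11, differed by -2.12 (limma, adjusted p = 0.0971) and Lpo, lactoperoxidase, by -0.35 (limma, adjusted p = 0.533). Cfd, next to Elane, differed by 0.64 (limma, adjusted p = 0.519) on dim spots, Gzmb by -0.76 (limma, adjusted p = 0.259) and the mast cell protease Mcpt4 by 2.23 (limma, adjusted p = 0.0924).

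Markers of some other cells were also lower in treated inflammatory cells. Of 6 eosinophil genes tested 3 passed as lower (Siglecf, Ear6 and Prg2) and 5 had every treated array below every control (median -2.22). The mean level of the list was -1.36 to -0.10 in PBS and -3.16 to -2.29 in ADSC. Siglecf was well above background on 4 PBS and 0 treated arrays, and Epx on 4 and 1. Both met the filter through their PBS arrays alone, so their separation is not independent of that filter. Of 6 monocyte genes 2 passed as lower (Chil3, which is also in a granule list, and F13a1), 4 were without overlap below the controls and 6 had a negative difference (median -1.08). Of 7 proliferation genes 1 passed (Cdk1), 6 were without overlap below the controls and 7 had a negative difference (median -1.14). Of 6 Kupffer cell genes 1 passed as lower (Cd5l; 4 without overlap, median -1.28), with 4 negative and 2 positive differences. The 8 basophil and mast cell genes were mixed, with 4 negative and 4 positive differences (median -0.25). Of these, 1 passed as lower (Mcpt8) and 2 were without overlap below the controls, while the highest difference, of Mcpt4, was 2.23. In T and NK cell, B cell, erythroid and hepatocyte genes 0 passed, with medians of -0.19, 1.00, 0.66 and 1.16. In the exocrine pancreas list 0 of 10 passed, with a median of -2.75, and the 3 rich arrays lay in both groups. The part of these lists in the falls of the 4 genes was not tested.

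**Figure D4:**
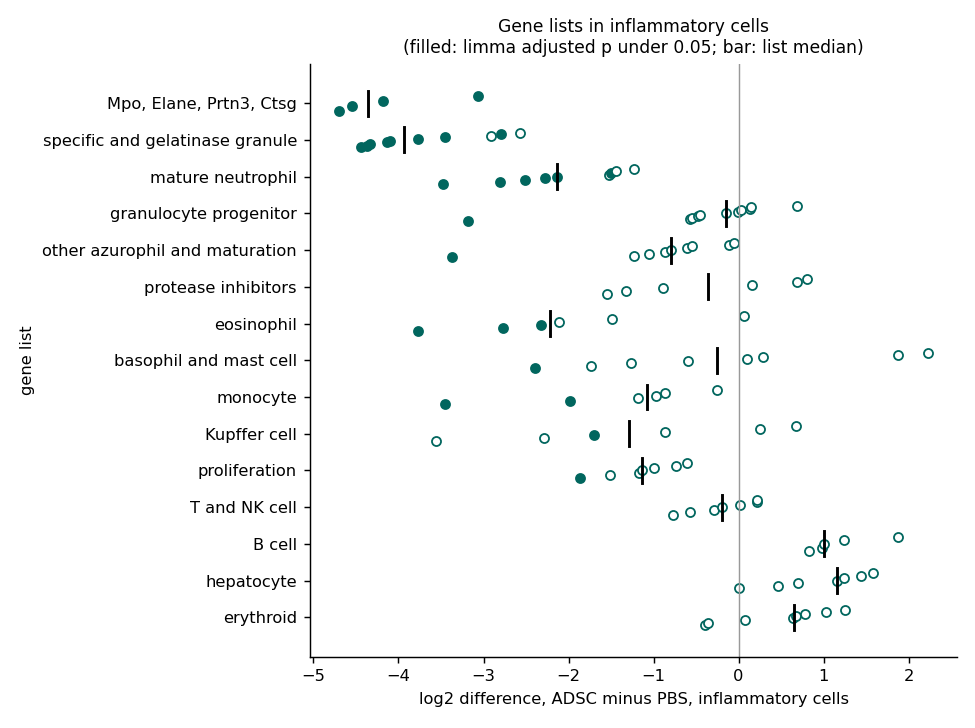
Log2 difference, ADSC minus PBS, in inflammatory cells (x axis) of each tested gene of 15 lists (y axis), filled where limma's adjusted p was under 0.05, with a bar at each list's median. The 4 azurophil granule genes and 8 of 10 specific and gelatinase granule genes are filled and lie left of -2. The progenitor list centres on -0.15, with 1 of 11 genes filled (Ms4a3).

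The genes whose levels most resembled the mean of the 4 over 16 arrays, among 12194 genes, were Mmp8 (Pearson r = 0.980), Ltf (0.970), Ngp (0.965), Itgb2l (0.961) and Ms4a3 (0.955). After group means were removed the nearest were Ltf (0.958), Mmp8 (0.931), Tmem40 (0.926), Ngp (0.920) and Slc2a3 (0.919). The mean for liver ADSC 10 is over 3 genes. These correlations are across 16 arrays that share groups and are given without a test.

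The falls of the 4 genes were set against those of the mature neutrophil and specific granule lists on the same arrays, a comparison added after results had been seen. It was run on 2 versions of the lists, which gave different adjusted p-values, and both are given. The exact permutation test of 4 arrays against 4 cannot give a p below 0.0286, and 14 tests were made in each version. With only the list genes above background on every array (8 and 4 genes), which was run before the other version, 0 of 14 had a Benjamini-Hochberg value under 0.05, and the lowest was 0.0667. With all 10 measured genes of each list, taken because a trimmed list should not be tested, 10 of 14 did, at 0.04. Because the choice of list moved the values across the threshold, none is counted here as passed.

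In inflammatory cells the log2 difference of Mpo, Elane and Ctsg minus that of the mature list was -2.13, -2.65 and -2.49 with all its genes, and -2.09, -2.60 and -2.45 with the trimmed list (exact permutation p = 0.0286, the smallest possible, in each of these 6 tests). For Prtn3 the difference was -1.01 (exact permutation p = 0.0286) and -0.96 (exact permutation p = 0.0571). Against the specific granule list with all genes, the differences were -0.50 for Mpo, -1.01 for Elane, 0.63 for Prtn3 and -0.85 for Ctsg (exact permutation p = 0.2, 0.0286, 0.0286 and 0.0286). With the trimmed list they were -0.08, -0.60, 1.04 and -0.44 (exact permutation p = 0.914, 0.2, 0.0286 and 0.0571). Elane's sign turned with normexp correction (0.87). In liver Mpo and Ctsg differed from the mature list by -2.44 and -1.67 with all genes and by -2.34 and -1.57 with the trimmed list (exact permutation p = 0.0286 in each of these 4 tests). Prtn3 differed from it by -0.60 (exact permutation p = 0.229) and -0.50 (exact permutation p = 0.343).

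**Figure D5:**
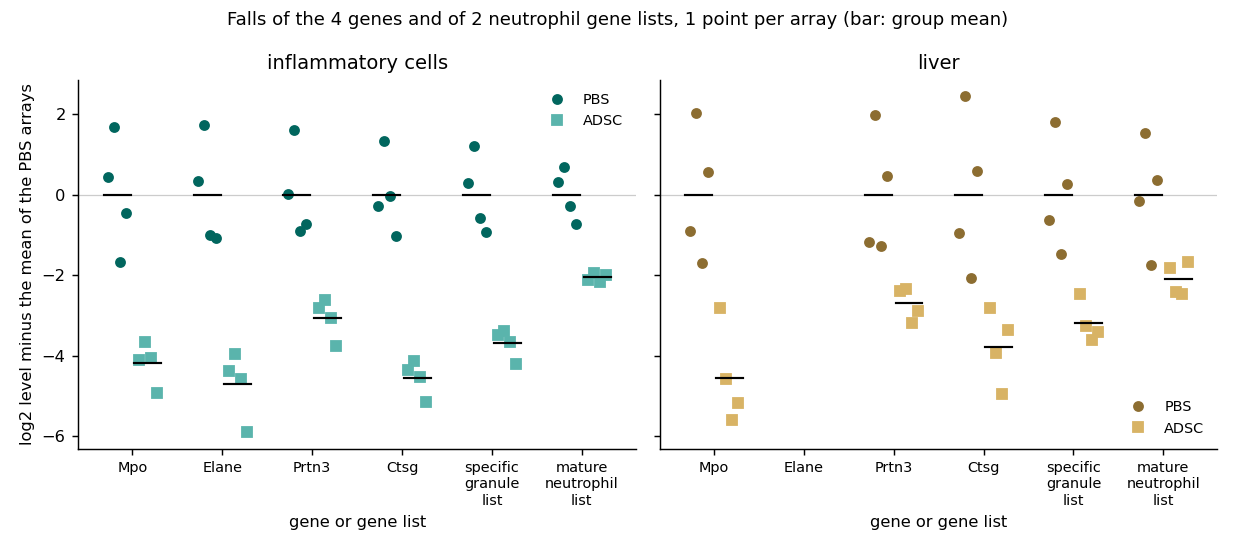
Level of each gene and mean level of the specific granule and mature neutrophil lists (10 genes each) on each array, minus the mean of the PBS arrays of the same sample type (y axis, log2), with PBS as circles, ADSC as squares and bars at group means. In inflammatory cells the ADSC bars are at -4.18, -4.70, -3.06 and -4.54 for Mpo, Elane, Prtn3 and Ctsg, -3.69 for the specific granule list and -2.05 for the mature list. Elane is not drawn for liver.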

How the data were processed

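RNA labelled with Cy3 was hybridised to 16 arrays, and the deposited scanner files hold intensities that Feature Extraction 10.5.1.1 had background-subtracted and detrended within each array only, per the file headers. The deposited value table held the same intensities (largest relative difference 0; column medians 30.6 to 90.9). Other deposited columns, per the file headers, mark spots well above background, outlying or saturated.

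Outlying spots (71 to 124 of 43379 per array) were left out. The log2 processed signal had its array's 75th percentile subtracted, and spots of a probe were averaged. Accessions named 23374 of 41174 probes through RefSeq (GRCm38.p6), and the brightest probe stood for a gene. The file headers name build mm8, so no probe coordinates are printed. A gene was tested where 4 or more arrays of the fit showed it well above background, with limma 3.58.1 (R 4.3.3; lmFit, eBayes), with Benjamini-Hochberg adjustment over all genes and a threshold of 0.05. Sample types were fitted apart for treatment and all 16 arrays together for other contrasts. The fit was tested on simulated data.

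The members, lists and tests were chosen with earlier results of these data known. Named genes were the 4 members, list genes that passed in inflammatory cells (at most 4, smallest p first; the 2 smallest p where fewer than 2 passed) and, whatever they did, Prss57, Ctsc, Epx, Lpo, Cfd, Gzmb, Mcpt8, Serpinb1a, Cebpe, Gfi1 and Ms4a3. Others named were chosen after their values were seen. Alternatives covered background correction, scaling, filters, slide, scan day, brightness, array weights, the value table, replicate numbers and each array left out. The mean-signal column was not in the files, so normexp (offset 50) used the median spot signal.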

Additional observations from a re-analysis of the deposited data

How the results depend on the processing

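In inflammatory cells the differences of the 4 genes stayed negative under each alternative that tested them (range -5.23 to -2.09), which was 14 for Mpo, Prtn3 and Ctsg and 12 for Elane, beside single arrays left out. With array brightness as a covariate they were -3.88 for Mpo (limma adjusted p = 0.0862), -4.71 for Elane (0.0655) and -2.89 for Prtn3 (0.118), and 1 of 4 passed. With slide as a fixed block they were -4.94 (Mpo), -5.20 (Elane), -3.52 (Prtn3) and -4.78 (Ctsg), and 0 passed. Without the 3 arrays rich in pancreas genes, an alternative chosen after seeing the data, they were -4.55 (Mpo), -3.28 (Prtn3) and -4.50 (Ctsg), and 0 passed. With single arrays left out, Prtn3 ran from -3.36 to -2.52, Mpo from -4.74 to -3.63, Elane from -5.06 to -4.12 and Ctsg from -4.89 to -4.10. The number of genes called, 243, was 0 with slide as a fixed block and without those 3 arrays, 64 with brightness, 109 with no filter, 140 with the percentile over detected probes, 161 with scan day, 360 with normexp, 818 with slide as a random block, 918 with all 16 arrays in 1 fit and 4535 with array weights, and 68 to 507 with single arrays left out. The causes were not tested.

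In liver, array weights gave Mpo -5.08 (limma adjusted p = 0.0355), 1 member called, among 18 genes called of 17321. Prtn3 between sample types in ADSC mice was 0.48 (limma adjusted p = 0.353) with normexp and quantile normalization. With only probes above background on every array, 1 member could be tested between sample types, and 1 was called in PBS and 1 in ADSC mice. The effect difference reversed for Mpo with normexp (-0.42), with normexp and quantile normalization (-0.55) and without the pancreas-rich arrays (-0.012), and for Prtn3 with slide as a fixed block (0.13) and brightness (0.26). Leaving out single arrays, it ran from -0.32 to 0.93 for Mpo and from -1.02 to 0.18 for Prtn3. It changed sign without liver PBS 12 (-0.32) or inflammatory cells PBS 13 (-0.20) for Mpo, and without liver PBS 11 (0.03), liver PBS 13 (0.07) or inflammatory cells PBS 12 (0.18) for Prtn3. Against the mature list in liver Prtn3 turned to 0.35 with normexp under both scalings, and against the specific granule list Elane turned to 0.87 and 0.35. For these comparisons the lists with all genes, the trimmed lists, normexp and single arrays left out gave between 0 and 10 Benjamini-Hochberg values under 0.05.

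Same-numbered arrays of the 2 sample types had correlations of -0.08 to 0.16, highest for its own number in 3 of 8. Such values between different tissues cannot settle whether a number marks an animal. For the mean of the 4 genes, PBS 12 was highest and PBS 13 lowest both in inflammatory cells (1.59 and -0.90 from the group mean) and in liver (2.32 and -1.93). Among ADSC arrays the highest and lowest numbers differed between the sample types. With the replicate block, fixed, Mpo between sample types in PBS mice was 2.45 (limma adjusted p = 0.000741, against 0.0113 without it). In PBS mice, ADSC mice and the effect difference 4, 3 and 0 members passed, as without it. Of 22139 genes, 9795 in PBS mice and 9952 in ADSC mice were called higher with this block. Genes called in the effect difference went from 7 to 0. Dim spots limit Elane and Prtn3 most: Elane was well above background on 1 of 4 treated inflammatory cell arrays and 0 liver ADSC arrays, Prtn3 on 0 liver ADSC arrays.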
